A study of Mus musculus with 35 samples.

Results

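The translation initiation and elongation factor genes were followed through a knockdown and rescue of Chtop in mouse neuroblastoma cells. They were chosen by a rule on the symbol, set with earlier results of these data known. The rule took every gene of the deposited tables whose name begins with Eif1 to Eif6 or with Eef1 or Eef2. Pseudogenes were left out, and a row in the count table was required. This gave 63 of the 9239 genes in that table. Another 6 matching symbols (Eif5a2, Eif2s3y, Eif4e1b, Eef1akmt3, Eif2c5 and Eif4ebp3) have RPKM values only, and 10 pseudogenes were left out. All 63 passed the filter on low counts in every fit.

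Poly(A) RNA was sequenced in 35 libraries of N2a Flp-In rtTA cells, a Neuro2a-derived line, to ask how loss of Chtop and the return of 1 of its isoforms change transcripts in the nucleus and the cytoplasm. Both lines used carry a doxycycline-inducible, siRNA-resistant Chtop cDNA, without exon 5 in the mEx5 line and with exon 5 in the pEx5 line. Each line was given a non-targeting siRNA pool (control), a Chtop siRNA (knockdown), or the Chtop siRNA with doxycycline (rescue), and each condition was measured in total lysate, nuclei and cytoplasm, with 2 biological replicates per group. The cytoplasmic pEx5 control has 1 library. Doxycycline was given with the medium change at 24 h and cells were harvested at 72 h, control cells from fewer pooled culture dishes than the others. Equal cell numbers entered each fractionation and 20% of a sample was kept as total lysate. No library combines doxycycline with the control siRNA, so effects of doxycycline and of the returned protein cannot be told apart. Control and knockdown differ in the siRNA given, and whether a change that stays in rescue comes from loss of Chtop was not tested. No spike-in is named: a change here is one against the bulk of genes in the same fraction, and fewer cells and less RNA per cell cannot be told apart.

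Translation starts when a ternary complex of eIF2, GTP and initiator tRNA joins the small ribosomal subunit with eIF1, eIF1A, eIF5 and the many-subunit eIF3. The cap-binding complex eIF4F (the cap-binding protein eIF4E, the scaffold eIF4G and the helicase eIF4A) brings the mRNA, and eIF5B helps the large subunit join. Afterwards eEF1A delivers aminoacyl-tRNA, the eEF1B complex recharges eEF1A with GTP, and eEF2 moves the ribosome along. Phosphorylation of eIF2 by its kinases blocks its exchange factor eIF2B, and 4E-binding proteins block eIF4E, so both are switches of the whole process. Many mRNAs of this machinery begin with a 5' terminal oligopyrimidine (TOP) tract, through which mTOR signalling controls their translation. CHTOP itself binds RNA and takes part in mRNA export as a partner of TREX.

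Start-site windows of 7 members with a matched start are shown because they carry results below: Eef1e1, Eef1a1 and Eif3f were among the transcripts most shifted toward cytoplasm, Eif4a2 and Eif5b were richer in nuclei, and Eif2d and Eef1akmt4 rose in nuclei after knockdown. Each window holds 10 bases before and 10 from the RefSeq start (GRCm38.p6), read 5' to 3' on the gene's strand. Capitals mark a C followed by at least 4 further pyrimidines, each C or T, searched on the gene's strand only.
Eef1e1: gtcctagctgtgcaggcccc
Eef1a1: ctccgCCCTCTTCCCgaggg
Eif3f: tctaggCTCTCTCTCTTTCT
Eif4a2: gaaaccccgtaggagcaggg
Eif5b: ctgggttcccacctggccgg
Eif2d: gttccgggccagcatcaggg
Eef1akmt4: ttagtcccgccctggctgcg
They lie at chr13:38659019-38659038 (minus strand), chr9:78481715-78481734 (minus strand), chr7:108934405-108934424 (plus), chr16:23107458-23107477 (plus), chr1:37998000-37998019 (plus), chr1:131153197-131153216 (plus) and chr16:20611591-20611610 (plus), in the order printed. RefSeq starts were matched for 50 of the 63 members, and Eif4g2, Eef1g and Eif4e3 were among the unmatched. Such a pyrimidine run was found in the window of 16 of these 50 genes (32%), and of 28.8% of the 27025 genes of the whole RefSeq table, so the members' share was near that of all genes. Among members known as TOP mRNAs, Eef1a1 and Eif3f had such a run, and Eef2, Eef1b2, Eef1a2 and Eif4b had none. Eef1d, Eef1g, Eif3e and Eif3h of this group were unmatched. The windows follow annotated starts, and the starts used in these cells were not examined. A window without a run therefore does not show that the mRNA lacks a TOP tract. Matching and non-matching members had near-equal median log2 ratios of nuclei to cytoplasm, -0.48 over 16 and -0.45 over 34 genes.

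Before the results, the libraries were checked against their labels. Chtop ran from 125 to 139 CPM (counts scaled to the library total) in control total lysate, 19.8 to 34.7 in knockdown and 186 to 282 in rescue, and it also fell in cytoplasm (137 to 148 against 17.7 to 31.2) and in nuclei (94.9 to 129 against 57.3 to 70.6). Library totals were 20652832 to 36102129 counts in total lysate, 11681781 to 28705620 in nuclei and 19478702 to 40105458 in cytoplasm, and no pair of libraries was identical. In total lysate the 11 neuroblastoma markers, Phox2a and Hand2 among them, summed to 1001 to 1093 RPKM in control, 845 to 1016 in knockdown and 812 to 977 in rescue. The 3 fibroblast genes reached at most 0.05 RPKM in sum and the 4 glial genes at most 11. Calls between rescue and knockdown in cytoplasm changed when replicate 2 of the pEx5 knockdown was left out, so these results are given both ways. That fit keeps replicate 1 as the only pEx5 knockdown library. Mitochondrial counts were 3.31% in replicate 1 and 2.30% in replicate 2.

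In control cells the most abundant members were elongation factors. Per length, Eef1a1, the tRNA-delivering GTPase, led with 12328 ± 1167 RPKM in total lysate (SD, n = 4). It was followed by the translocase Eef2 at 2946, then by Eef1b2 and Eef1g, subunits of the eEF1B exchange complex, at 1267 and 1203. The lowest member of the count table was Eif2ak4 (GCN2, the eIF2 kinase that senses uncharged tRNA) at 5.37 RPKM, and the means of the other 3 eIF2 kinases ran from 8.50 to 14.2. Within paralog families the levels were unequal: Eif4a1 stood at 425 ± 22.4 RPKM and Eif4a2 at 155 ± 13.8, while Eif4e, Eif4e2 and Eif4e3 stood at 145 ± 20.2, 101 ± 7.29 and 14.9 ± 1.89, with no shared values between neighbours. Together the 63 genes took 4.12% ± 0.17 of all counts in control total lysate (n = 4), 2.32% ± 0.13 in nuclei (n = 4) and 4.09% ± 0.18 in cytoplasm (n = 3).

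Under control siRNA the translation factor transcripts leaned toward the cytoplasm. Of the 63 members, 47 were lower in nuclei than in cytoplasm and 6 were higher (edgeR's quasi-likelihood test, Benjamini-Hochberg adjusted p under 0.05), where 36.1% and 33.8% of all genes passed in these directions (69.9% in either). The median log2 ratio of nuclei to cytoplasm was -0.50, against -0.03 over all genes. Everything that makes up eIF3 (14 of 14 genes) and the elongation factors (6 of 6) passed as lower, with medians of -0.69 and -0.78. The eIF2 and eIF2B genes followed with 7 of 8.

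Eef1e1, which encodes a small scaffold protein of the aminoacyl-tRNA synthetase complex, had the lowest ratio. It read 22.5, 18.8, 22.7 and 18.2 CPM in the nuclear control libraries (mEx5 replicates 1 and 2, then pEx5 replicates 1 and 2, the order used throughout) and 57.4, 50.3 and 51.2 in the cytoplasmic ones, a log2 ratio of -1.35 ± 0.11 (SE, adjusted p = 4.49e-08). Eif4e3, a cap-binding relative of eIF4E, read 14.3, 16.7, 12.8 and 15.2 CPM in nuclei and 38.1, 37.1 and 35.2 in cytoplasm (log2 ratio -1.29 ± 0.10). Nuclear and cytoplasmic libraries did not overlap for either gene. Eif3h, an eIF3 subunit, read 185, 183, 245 and 211 CPM in nuclei against 494, 468 and 502 in cytoplasm, at -1.25 ± 0.11. The ratio of Eef1a1 was as low, -1.25 ± 0.10, with 5866 to 6718 CPM in nuclei and 13905 to 16523 in cytoplasm, and Eif3f stood at -1.18 ± 0.12.

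The 6 members richer in nuclei were Eif4a2, the scaffold genes Eif4g1 and Eif4g3, Eif5b and 2 eIF2 kinases. Eif4a2, a paralog of the eIF4A helicase, read 332, 297, 271 and 204 CPM in nuclei and 178, 166 and 147 in cytoplasm (log2 ratio 0.79 ± 0.11, adjusted p = 1.13e-05, edgeR). Eif4a1, which encodes the more abundant eIF4A, lay on the other side at -0.23 ± 0.10 (352 to 487 CPM against 454 to 499, overlapping ranges), and Eif4a3, the helicase of the exon junction complex, at -0.32 ± 0.09. Among the kinases, Eif2ak2 (PKR, activated by double-stranded RNA) read 48.4, 45.8, 41.5 and 42.3 CPM in nuclei against 27.2, 23.7 and 28.8 in cytoplasm, and Eif2ak4 read 41.6, 50.5, 47.6 and 49.6 against 27, 31.9 and 30.8. Every nuclear library of both kinases was above every cytoplasmic one (log2 ratios 0.73 ± 0.10 and 0.66 ± 0.11). The scaffold family also parted: Eif4g1 and Eif4g3, the eIF4F scaffolds, were higher in nuclei at 0.21 ± 0.08 and 0.26 ± 0.09, and Eif4g2, which encodes the shorter DAP5 protein that lacks the eIF4E-binding part, was lower at -0.72 ± 0.12. Eif5b, the subunit-joining GTPase, was higher in nuclei at 0.58 ± 0.16. Of the 53 calls, 45 held in every fit that left out 1 library. The others (Eif3j1, Eif4g3, Eif2ak1, Eif4g1, Eef1d, Eif4b, Eif4a1 and Eif2s2) lost theirs in at least 1 such fit, with adjusted p up to 0.17.

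**Figure D1:**
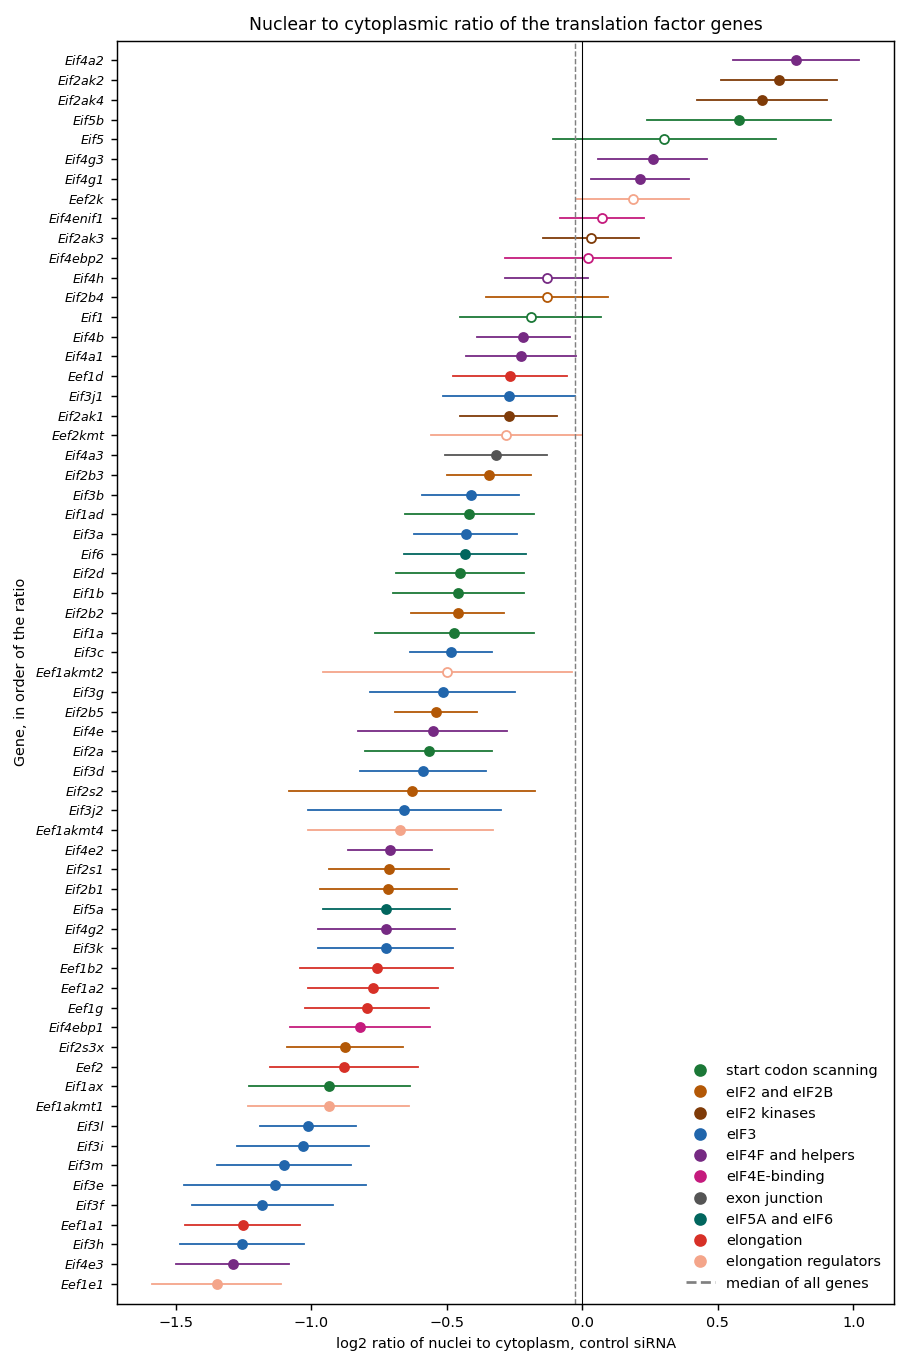
Log2 ratio of nuclei to cytoplasm under control siRNA for the 63 translation factor genes (x axis), in order of the ratio (y axis). Points are edgeR estimates over both lines, bars 95% intervals, filled points passed at adjusted p under 0.05, colours give the role, and the dashed line is the median of all genes; most members lie left of it, from Eef1e1 at -1.35 to Eif4a2 at 0.79.

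Other properties outside the choice of the genes were set beside this ratio. Longer transcripts tended to the nuclear side: Spearman's rho between the ratio and the longest annotated transcript was 0.50 over the 63 members and 0.39 over all 9239 genes, values across genes that share the same libraries. Genes that the authors' deposited table marks as overlapping Chtop iCLIP made up 27 of the 63 members (42.9%) and 48.5% of all genes in that table, which does not give the source of the marks. Marked members had a median ratio of -0.27 and unmarked ones of -0.69. The same medians over all genes were 0.24 and -0.32.

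After Chtop knockdown, more of the called translation factor transcripts of total lysate fell than rose, and how many were called depended on the fit. The strongest falls were of Eif4g2, a scaffold for cap-independent initiation, and of Eef1g, the gamma subunit of eEF1B, followed by Eif4e3, the eIF3 subunit genes Eif3d and Eif3m and the 4E-binding protein gene Eif4ebp2. Eef1akmt4, encoding a methyltransferase of eEF1A, Eif2b1 (the alpha subunit of eIF2B) and Eif3f rose. Without a replicate block, 3 members rose and 15 fell (edgeR, adjusted p under 0.05), against 21.4% of all genes higher and 22.6% lower. With the replicate number as a block, 12 rose and 23 fell, 55.6% of members beside 62.9% of all genes. Without the block the members' share of calls, 28.6%, was below the 43.9% of all genes. Rises made up 16.7% of the members' calls in that fit and 48.6% of the calls of all genes. Their median log2 fold change was -0.05 against 0.01 over all genes.

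Eif4g2 (chr7:111067750-111083030, minus strand, mm10) read 1060, 943, 1135 and 992 CPM in control, 503, 560, 508 and 492 in knockdown and 543, 551, 453 and 476 in rescue. All knockdown and rescue libraries lay under all controls, a fall of 2.02-fold (log2 fold change -1.02 ± 0.07, adjusted p = 1.30e-05, edgeR). It was the single member past 2-fold in total lysate, and it fell in both lines (-0.92 ± 0.10 in mEx5, -1.11 ± 0.10 in pEx5). Of its relatives, Eif4g1, at 556 to 582 CPM in control and 501 to 574 in knockdown, stood at -0.13 ± 0.06 (adjusted p = 0.12) and did not pass, and Eif4g3, at 180 to 194 against 161 to 179, fell by 0.15 on the log2 scale. In total lysate the knockdown libraries lay wholly above control for 5 members and wholly under it for 14. Such groups without overlap were seen for 38.3% of all genes.

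Eef1g (chr19:8967041-8978479, plus strand, mm10) read 1456, 1560, 1287 and 1376 CPM in control total lysate, 822, 921, 675 and 733 in knockdown and 735, 915, 747 and 752 in rescue. It fell 1.83-fold, with no overlap (log2 fold change -0.87 ± 0.07, adjusted p = 2.99e-05, edgeR). Of the other eEF1B subunit genes, Eef1b2 stood at 0.01 ± 0.09 and Eef1d at -0.16 ± 0.07 (adjusted p = 0.075), and neither passed. Of the eEF1A pair, which Eef1g's complex recharges, Eef1a1 stood at -0.07 ± 0.07 with 13931 to 16717 CPM in control and 13672 to 15828 in knockdown, and Eef1a2, the form of muscle and neurons, at -0.18 ± 0.07 with 621 to 691 against 528 to 657. Neither passed, and the ranges overlapped for both. The translocase gene Eef2 fell by 0.38 ± 0.11, from 7608 to 8940 CPM down to 5389 to 7407, and lost its call in 4 of the 8 fits without 1 library (highest adjusted p 0.078).

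Among the initiation groups, eIF3 had subunit genes called in both directions. Eif3d, whose protein can itself bind the cap of some mRNAs, read 846, 844, 832 and 817 CPM in control and 559, 630, 577 and 616 in knockdown (log2 fold change -0.50 ± 0.06, adjusted p = 0.00015, edgeR). Eif3m fell by 0.43 ± 0.06 and Eif3a, the large scaffold subunit, by 0.28 ± 0.07. Eif3f, in contrast, read 589, 553, 572 and 515 CPM in control and 709, 656, 669 and 677 in knockdown, a rise of 0.27 ± 0.08 with no overlap. Its call was lost without the mEx5 knockdown replicate 1, the pEx5 knockdown replicate 1, the mEx5 control replicate 2 or the pEx5 control replicate 2 (0.22 to 0.26, adjusted p 0.062 to 0.084). The other 10 of the 14 eIF3 genes did not pass.

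In the eIF2 system the subunits also differed. Eif2b1 (chr5:124570213-124579131, minus strand, mm10) read 32.8, 31, 36.8 and 32.5 CPM in control and 42, 43.8, 48.2 and 41.5 in knockdown, a rise of 0.39 ± 0.08 (adjusted p = 0.0033, edgeR). Eif2b2 and Eif2b3, for the beta and gamma subunits of the same exchange factor, fell by 0.24 ± 0.06 and 0.18 ± 0.06. Eif2s3x, the gamma subunit of eIF2, fell from 208 to 241 CPM to 172 to 189 (log2 fold change -0.33 ± 0.07). Its Y-linked partner Eif2s3y is listed at 0 RPKM in all fractions and conditions. Eif2a, an alternative initiator-tRNA carrier, fell by 0.28 ± 0.05, Eif5, the GTPase-activating protein of eIF2, by 0.39 ± 0.10 and Eif2ak2 by 0.23 ± 0.08. The scanning genes Eif1, Eif1a, Eif1ax and Eif1b stood between 0.04 and 0.16, none passing.

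Among the cap-binding and 4E-binding genes, Eif4e3 and Eif4ebp2 passed. Eif4e3 (chr6:99625135-99666771, minus strand, mm10) read 25.2, 29.9, 22.2 and 24.7 CPM in control and 15.8, 20.7, 15.7 and 18.4 in knockdown, with no overlap (log2 fold change -0.54 ± 0.10, adjusted p = 0.0018, edgeR). Eif4e, the main cap-binding protein, stood at 0.02 ± 0.10 (135 to 184 CPM against 153 to 180), and Eif4e2, linked to translational repression, at 0.13 ± 0.09 (94.6 to 108 against 101 to 125). Eif4ebp2 fell from 97.6 to 120 CPM to 71.9 to 95 (-0.39 ± 0.10), while Eif4ebp1 read 420 to 466 against 412 to 497 (0.02 ± 0.09). Eif5a, a factor that relieves stalled elongation, stood at -0.10 ± 0.09 (774 to 982 CPM against 729 to 980), and Eif4a1, Eif4a2 and Eif4a3 at 0.04, -0.15 and 0.17. None of these passed except Eif4e3 and Eif4ebp2.

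The methyltransferase gene Eef1akmt4 (chr16:20611593-20619011, plus strand, mm10) read 13, 14.4, 12.5 and 13 CPM in control, 19.2, 17.8, 18.6 and 17.7 in knockdown and 15.4, 16.5, 19.3 and 16.5 in rescue. Its rise of 0.46 ± 0.09 (adjusted p = 0.0022, edgeR) was the highest among the 63 genes, and no knockdown library overlapped a control. Exons of Eef1akmt4 share bases with Gm49333 on the same strand and with Alg3 on the other, so its counts are uncertain. In all, 21 of the 63 members share exon bases with another gene, so their counts are uncertain too. The overlap was on the same strand for 6 and on the opposite strand for 17. Eif4e3 (with Gm20696) overlaps on the same strand. Eif3d (Gm17638), Eif3m (Ccdc73), Eef2kmt (Alg1), Eif4a2 (Rfc4) and Eif5b (Rev1) overlap on the opposite strand.

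Replicate numbers paired the libraries in total lysate and nuclei. With the replicate number as a block, 12 members rose and 23 fell in total lysate, where 31.4% of all genes rose and 31.4% fell in the same fit. Among those gained were Eif5b at 0.39 ± 0.06 and Eif2s2, the beta subunit of eIF2, at -0.42 ± 0.05 (adjusted p = 5.54e-05 and 1.34e-06, edgeR with the block). Of the genes described above as not passing, Eif4g1, Eef1a2, Eef1d, Eif1ax, Eif4e2, Eif4a2, Eif4a3, Eif3c, Eif3g and Eif3j1 passed with the block, each with its sign unchanged. Of the 18 calls without the block, 12 held in every fit that left out 1 library. Besides Eif3f and Eef2, the call of Eif5 was lost in 1 of the 8 such fits (without replicate 1 of the mEx5 control, adjusted p 0.070) and that of Eif2ak2 in 6. The calls of Eif2b3 and Eif4g3 were lost in all 8 (highest adjusted p 0.12 and 0.15). The mitochondrial share of counts was 2.45% to 3.51% in control, 3.38% to 4.84% in knockdown and 3.52% to 4.97% in rescue, and its part in these changes was not tested. The 63 genes took 4.12% ± 0.17 of counts in control and 3.70% ± 0.17 in knockdown (n = 4 each).

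**Figure D2:**
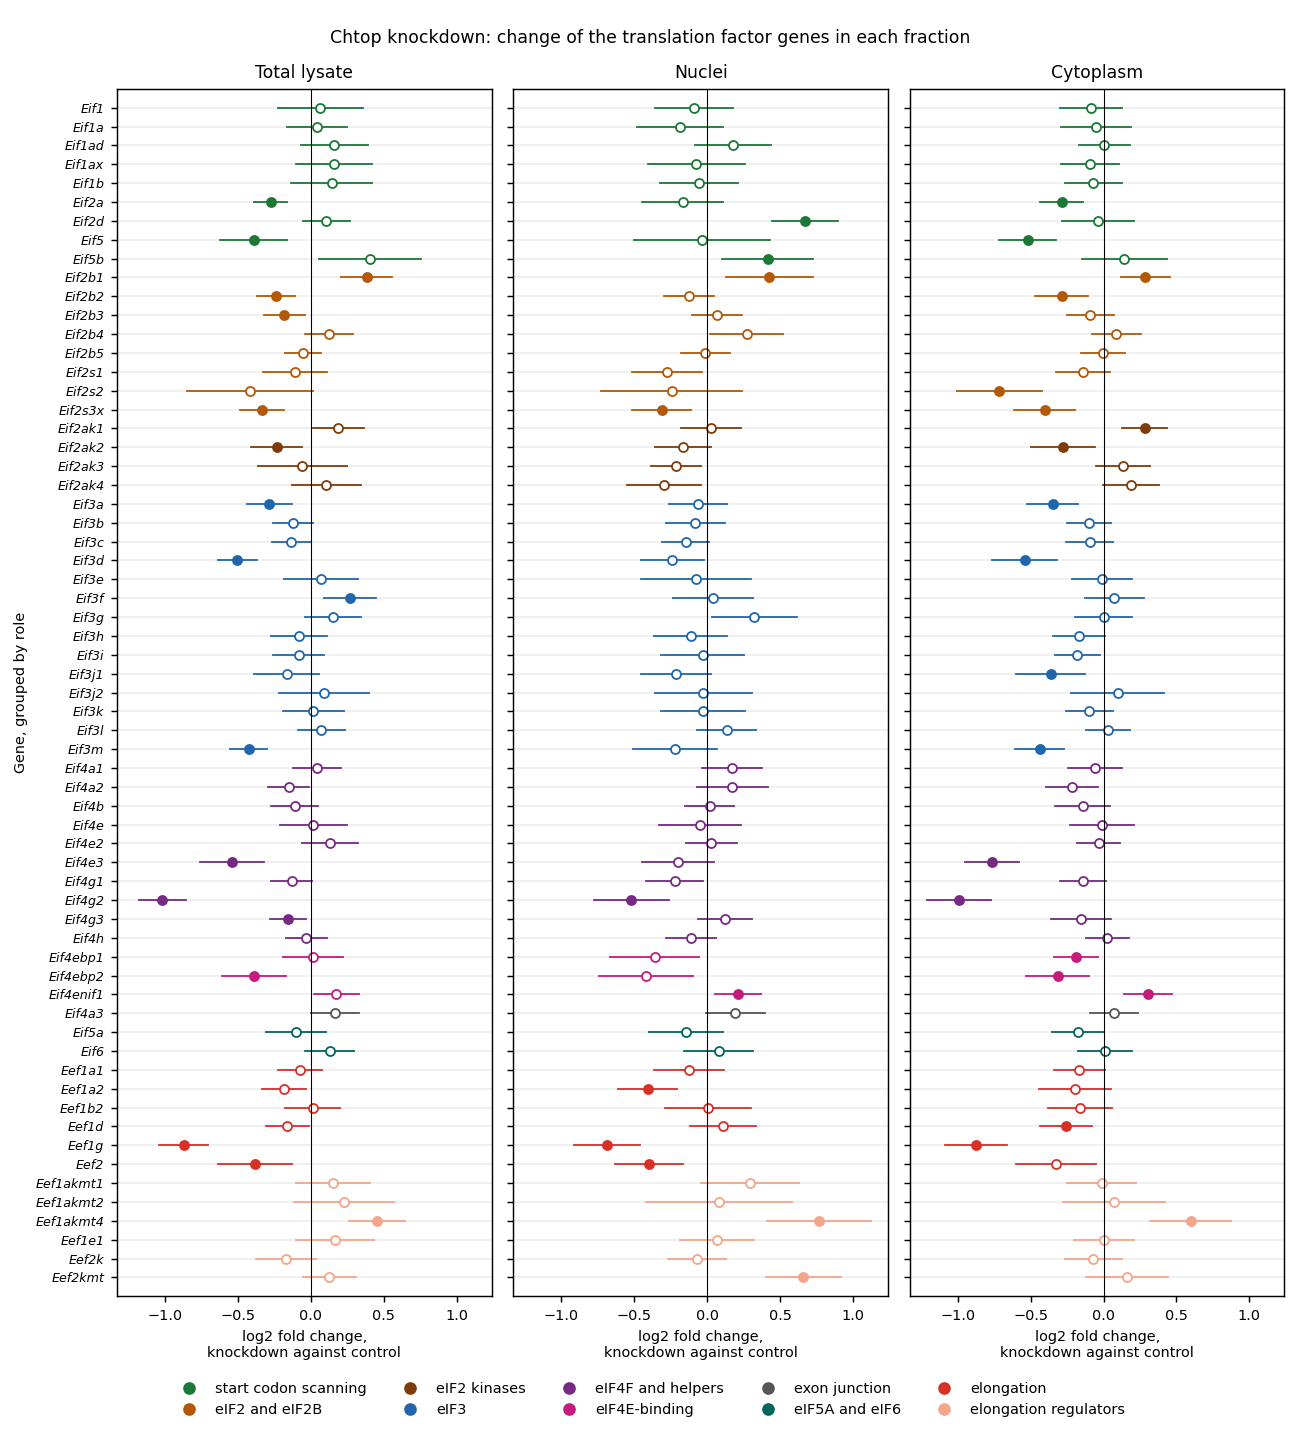
Log2 fold change of knockdown against control (x axis) for the 63 genes grouped by role (y axis), in total lysate, nuclei and cytoplasm. Points are edgeR estimates over both lines, bars 95% intervals, and filled points passed at adjusted p under 0.05; Eif4g2 and Eef1g lie lowest in total lysate and cytoplasm and Eef1akmt4 lies highest in all 3 fractions.

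In nuclei the fit without the replicate block called about as many translation factor transcripts higher after knockdown as lower. The fit with the block called more lower than higher. The highest rises were of Eef1akmt4, of Eif2d, a factor that can place tRNA on the ribosome without eIF2, and of Eef2kmt, a methyltransferase of eEF2. Eef1g, Eif4g2, Eef1a2, Eef2 and Eif2s3x fell. Without the block 6 members were higher and 5 lower (edgeR, adjusted p under 0.05), against 15.4% and 16% of all genes (31.4% in either direction). The median log2 fold change was -0.06 against 0.00 over all genes. None of the 14 eIF3 genes passed without the replicate block, and 5 passed with it: Eif3g at 0.32 ± 0.06 (adjusted p = 0.00013), and Eif3d, Eif3m, Eif3j1 and Eif3c between -0.24 and -0.15.

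Eif2d (chr1:131153181-131187658, plus strand, mm10) read 12.3, 15.3, 13.7 and 11.9 CPM in the nuclear controls, 22.2, 21, 18.4 and 21 in knockdown and 24, 23.4, 26.4 and 24.9 in rescue. Both later conditions lay above all controls, and the knockdown rise was 1.59-fold (log2 fold change 0.67 ± 0.10, adjusted p = 0.0011, edgeR). In cytoplasm the same gene read 18.7, 19.5 and 17.5 CPM in control and 15.8, 19.5, 17 and 21.5 in knockdown, overlapping ranges at -0.04 ± 0.11. Exons of Eif2d share bases with Rassf5 on the other strand, and no source used here states the strand setting of the counting.

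Eef2kmt, with 7.77, 10.9, 12.5 and 11.7 CPM in the nuclear controls and 16.2, 15.8, 17.2 and 16.7 in knockdown, rose by 0.66 ± 0.12 (adjusted p = 0.0022, edgeR). Eef1akmt4 rose from 5.88, 7.21, 6.03 and 5.32 CPM to 11.7, 10.3, 9.03 and 9.50 (0.77 ± 0.16). Knockdown libraries lay above all controls for both genes. In nuclei this held for 4 members, and 7 lay wholly under control, beside 29.9% of all genes without overlap in either direction. Smaller rises passed for Eif2b1 (0.43 ± 0.13), Eif5b (0.41 ± 0.14) and Eif4enif1, the eIF4E transporter gene (0.21 ± 0.07).

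On the lower side, Eef1g read 605, 654, 773 and 642 CPM in the nuclear controls and 441, 430, 386 and 365 in knockdown (-0.69 ± 0.10, adjusted p = 0.00093, edgeR). Eif4g2 read 963, 755, 967 and 837 against 616, 584, 638 and 558 (-0.52 ± 0.11). Eef1a2 read 303, 301, 377 and 352 against 290, 248, 204 and 238 (-0.41 ± 0.09). In each case the groups did not overlap. Its paralog Eef1a1 stood at -0.12 ± 0.11, with 5866 to 6718 CPM in control and 4939 to 6845 in knockdown.

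The nuclear count depended on the fit. With the replicate block 12 members rose and 18 fell, beside 27.8% and 27.6% of all genes. DESeq2 called 6 and 11, beside 17.3% and 18.7%, and scaling by library totals alone called 4 and 10, beside 13.4% and 18.8%. Without replicate 1 of the mEx5 control, mEx5 knockdown or pEx5 knockdown, or replicate 2 of the mEx5 or pEx5 control, 7 members (11.1%) were called each time, beside 21.7% to 24.6% of all genes. The 6 calls that held in every fit without 1 library were those of Eef1akmt4, Eif2d, Eef2kmt, Eef1g, Eif4g2 and Eef1a2.

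In cytoplasm most of the called translation factor transcripts fell. Eif4g2, Eef1g, Eif4e3, Eif2s2, Eif3d and Eif5 fell most, and Eef1akmt4, Eif4enif1, Eif2b1 and Eif2ak1, the heme-regulated eIF2 kinase gene, rose. This made 4 higher and 16 lower members (edgeR, adjusted p under 0.05), against 19.8% and 20.9% of all genes. The members' share of calls, 31.7%, was below the 40.7% of all genes. Rises made up 20% of the members' calls and 48.7% of the calls of all genes. The median log2 fold change was -0.09 against 0.00. Nuclear Malat1 read 44.4 to 56.9 CPM in the cytoplasmic controls and 63.4 to 77.7 in knockdown, and mitochondrial counts were 1.90% to 2.09% against 2.27% to 3.31%; their part in these changes was not tested.

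Eif4g2 read 1434 and 1250 CPM in the mEx5 and 1594 in the pEx5 cytoplasmic control, and 829, 745, 818 and 656 in knockdown. It was 1.99-fold lower (log2 fold change -0.99 ± 0.10, adjusted p = 3.35e-05, edgeR). Eef1g read 1323, 1294 and 1037 CPM against 629, 790, 558 and 670 (-0.87 ± 0.10). Eif4e3 read 38.1, 37.1 and 35.2 against 22, 24.5, 19.7 and 22.6 (-0.77 ± 0.08). Every control lay above every knockdown library for these 3 genes. In cytoplasm this held for 15 members, and 7 lay wholly above control, beside 44.1% of all genes without overlap in either direction.

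Of the eIF2 subunits, Eif2s2 fell from 462, 312 and 423 CPM to 264, 231, 281 and 248 (-0.71 ± 0.13, adjusted p = 0.0017, edgeR) and Eif2s3x from 298, 266 and 293 to 238, 215, 248 and 198 (-0.40 ± 0.10). Eif2s1, the alpha subunit that the kinases phosphorylate, stood at -0.14 ± 0.08 and did not pass. Eif5 fell from 248, 211 and 242 CPM to 180, 165, 183 and 153 (-0.52 ± 0.09), and the 2 groups did not overlap.

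The 4E-related genes were called in both directions in cytoplasm. Eif4ebp2 fell by 0.31 ± 0.10 and Eif4ebp1 by 0.19 ± 0.07, whereas Eif4enif1 rose from 86.3, 89 and 99.4 CPM to 129, 116, 122 and 112 (0.31 ± 0.08, adjusted p = 0.0073, edgeR). Eef1akmt4 rose from 9.73, 10.7 and 9.37 CPM to 13.3, 16.2, 16.8 and 15.1 (0.60 ± 0.13), and Eif2b1 from 34.7, 31 and 35.3 to 43.1, 44.4, 41.6 and 42.9 (0.29 ± 0.08). Eef1d, the delta subunit of eEF1B, passed here with a fall of 0.26 ± 0.08. Of the 20 calls, 14 held in every fit without 1 library, and Eif2b2, Eif4ebp1, Eif4ebp2, Eif2ak2, Eif3j1 and Eef1d were lost in at least 1 (adjusted p up to 0.24), Eif4ebp1 in 5 of the 6 such fits. A fit without the single pEx5 control has no value here.

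**Figure D3:**
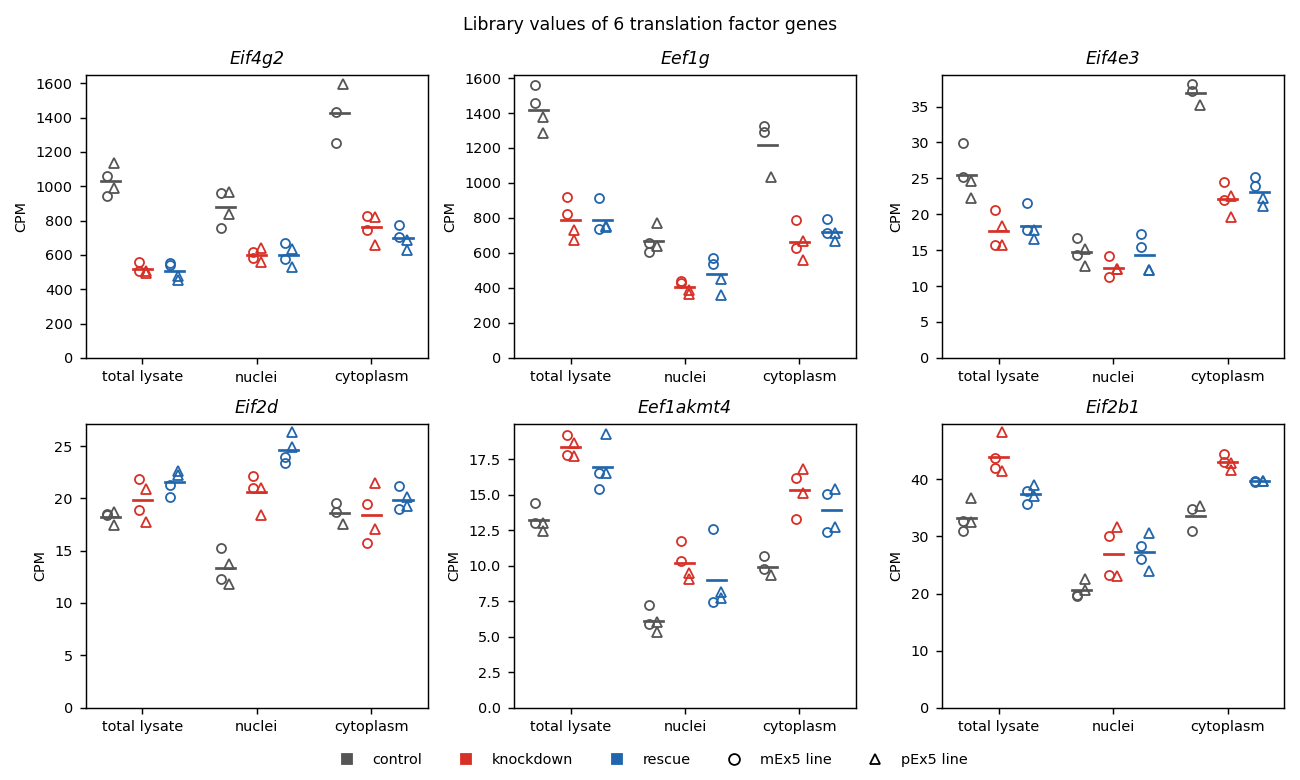
CPM (y axis, from 0) of 6 translation factor genes in each library, by fraction and condition (x axis). Circles are the mEx5 and triangles the pEx5 line, and horizontal lines are means over 4 libraries (3 in the cytoplasmic control); in total lysate the rescue libraries of Eif4g2 (453 to 551) and Eef1g (735 to 915) stay under all controls.

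The knockdown changed the ratio of nuclei to cytoplasm of few members. Eif2d shifted toward nuclei by 0.72 ± 0.15 on the log2 scale (adjusted p = 0.012) and Eif4e3 by 0.58 ± 0.13 (adjusted p = 0.023), and no member shifted toward cytoplasm (edgeR interaction term; 3.83% of all genes passed toward nuclei and 1.31% toward cytoplasm, 5.14% in all). In the fits of single fractions, Eif2d rose in nuclei with cytoplasm at -0.04 ± 0.11, and Eif4e3 fell in cytoplasm by 0.77 ± 0.08 with nuclei at -0.20 ± 0.11. The median over the members was 0.10, against 0.01 over all genes. In the authors' deposited table the corresponding differences were 0.90 for Eif2d, 0.56 for Eif4e3 and 0.94 for Eif4g2. In the edgeR fit without the replicate block Eif4g2 stood at 0.49 ± 0.16 (adjusted p = 0.095) and did not pass. With the block it passed at 0.45 ± 0.09 (adjusted p = 0.00196, edgeR), so its call depended on the fit.

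The call of Eif2d held in every setting tried, while that of Eif4e3 was lost in 5 of the 14 fits without 1 library. These were without replicate 1 of the nuclear mEx5 control, nuclear pEx5 control, cytoplasmic mEx5 control or cytoplasmic mEx5 knockdown, or without replicate 2 of the nuclear mEx5 knockdown (0.48 to 0.57, adjusted p 0.052 to 0.076). With the replicate block 11 members shifted toward nuclei and 2 toward cytoplasm, beside 13% and 9.63% of all genes, the latter 2 being the kinase genes Eif2ak4 (-0.46 ± 0.11) and Eif2ak3 (PERK, the eIF2 kinase of the endoplasmic reticulum, -0.31 ± 0.10). Scaling by library totals alone called 2 each way, beside 2.23% and 4.45% of all genes.

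No translation factor transcript passed between rescue and knockdown. Over both Chtop isoforms, the rescue called 0 of the 63 members against knockdown in total lysate, nuclei or cytoplasm (edgeR), where 0.0217%, 0.0108% and 0.0433% of all genes passed (in cytoplasm 0.0325% higher and 0.0108% lower). At an unadjusted p under 0.05 there were 3, 1 and 4 members, beside 660 of 9237, 771 of 9239 and 886 of 9238 genes. DESeq2 called 0 members in each, and 22, 79 and 21 of all genes. With the replicate block, Eif6, which keeps ribosomal subunits apart, passed in total lysate with a fall, as did 0.877% of all genes. Log2 fold changes over the members ran from -0.27 to 0.18, -0.21 to 0.22 and -0.26 to 0.22.

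For Eif4g2 the rescue against knockdown was -0.04 in total lysate (95% interval -0.20 to 0.12), -0.03 in nuclei (-0.28 to 0.23) and -0.13 in cytoplasm (-0.33 to 0.06). Against control, rescue stood at -1.06 ± 0.07 in total lysate and knockdown at -1.02 ± 0.07, 2 values that share their controls. Eef1g likewise stood at -0.87 ± 0.07 both in rescue and in knockdown, and its rescue against knockdown was -0.00 (-0.17 to 0.16). The upper bounds, 0.12 and 0.16, lie under the 1.02 and 0.87 that a full return to control would take. The rescue changed the ratio of nuclei to cytoplasm of 0 members (edgeR), with Eif2d at 0.12 ± 0.14 and Eif4e3 at 0.08 ± 0.13. Of all genes 0.0216% passed, all toward cytoplasm. At an unadjusted p under 0.05 there were 0 members, beside 249 of 9239 genes. DESeq2 called 0 members and 4 of all genes.

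For 1 member in total lysate, 2 in nuclei and 4 in cytoplasm the rescue and knockdown libraries did not overlap, beside 2.62%, 4.84% and 4.37% of all genes, and none passed the test. In total lysate Eif2b1 read 35.6, 38, 39 and 37.2 CPM in rescue, under all 4 knockdown libraries (41.5 to 48.2) and overlapping the controls (31 to 36.8), but its log2 fold change of -0.24 ± 0.08 had an adjusted p of 0.68 over all genes (edgeR). Nuclear Eif2d lay further from control, at 23.4 to 26.4 CPM against 18.4 to 22.2 in knockdown (0.22 ± 0.10, adjusted p = 0.60), while nuclear Eef2kmt lay nearer to it, at 13.6 to 15.5 against 15.8 to 17.2 (-0.18 ± 0.11, adjusted p = 0.70). In cytoplasm Eef2 and Eef2k lay above all knockdown libraries and Eif2b1 and Eif2s1 under them. Nuclear Eef1a2, with 314, 318, 291 and 248 CPM in rescue and 204 to 290 in knockdown, overlapped (0.22 ± 0.09, unadjusted p = 0.034, adjusted p = 0.58).

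In cytoplasm the result rests on 1 library. Without replicate 2 of the pEx5 knockdown, edgeR called 6 members higher and 3 lower in rescue than in knockdown, 14.3% of the members beside 14.1% of all genes (7.07% higher and 7.06% lower), so the count lay at the share of all genes. They were Eef2 (0.38 ± 0.08), Eef1a2 (0.36 ± 0.08), Eif3d (0.31 ± 0.08), Eef2k (the eEF2 kinase gene, 0.29 ± 0.07), Eif3f (0.27 ± 0.07) and Eif4b (a helper of eIF4A, 0.27 ± 0.07) on the higher side, and Eif1a (-0.27 ± 0.08), Eif1 (-0.25 ± 0.07) and Eif2s1 (-0.24 ± 0.08) on the lower. For Eef2 that library read 7271 CPM, beside 6139, 7256 and 4905 in the other knockdown libraries and 7391 to 7590 in rescue. For Eif3d it read 605, beside 501, 568 and 442, and 569 to 673 in rescue. The lowest knockdown values, 4905 and 442 CPM, were those of replicate 1. The fit without replicate 2 keeps it as the only pEx5 knockdown library. Eif4g2 and Eef1g were not among the 9.

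Set against the same controls, the rescue called 3 members higher and 13 lower in total lysate (18.3% and 19% of all genes, 37.3% in either direction), 5 and 6 in nuclei (11.5% and 12.2%, 23.7% in either) and 4 and 17 in cytoplasm (17.2% and 18.4%, 35.7% in either). Every fit that left out 1 library called fewer members than this in its fraction, and a smaller share of all genes too. Such a fit leaves a group with 1 library. With the block the counts were 9 higher and 24 lower in total lysate (29.6% and 28.3% of all genes) and 9 and 14 in nuclei (24.4% and 25.5%). In cytoplasm Eif4g2 stood at -1.13 ± 0.10, Eif2s2 at -0.73 ± 0.13, Eif4e3 at -0.71 ± 0.08 and Eif5 at -0.64 ± 0.09, each lower than control.

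**Figure D4:**
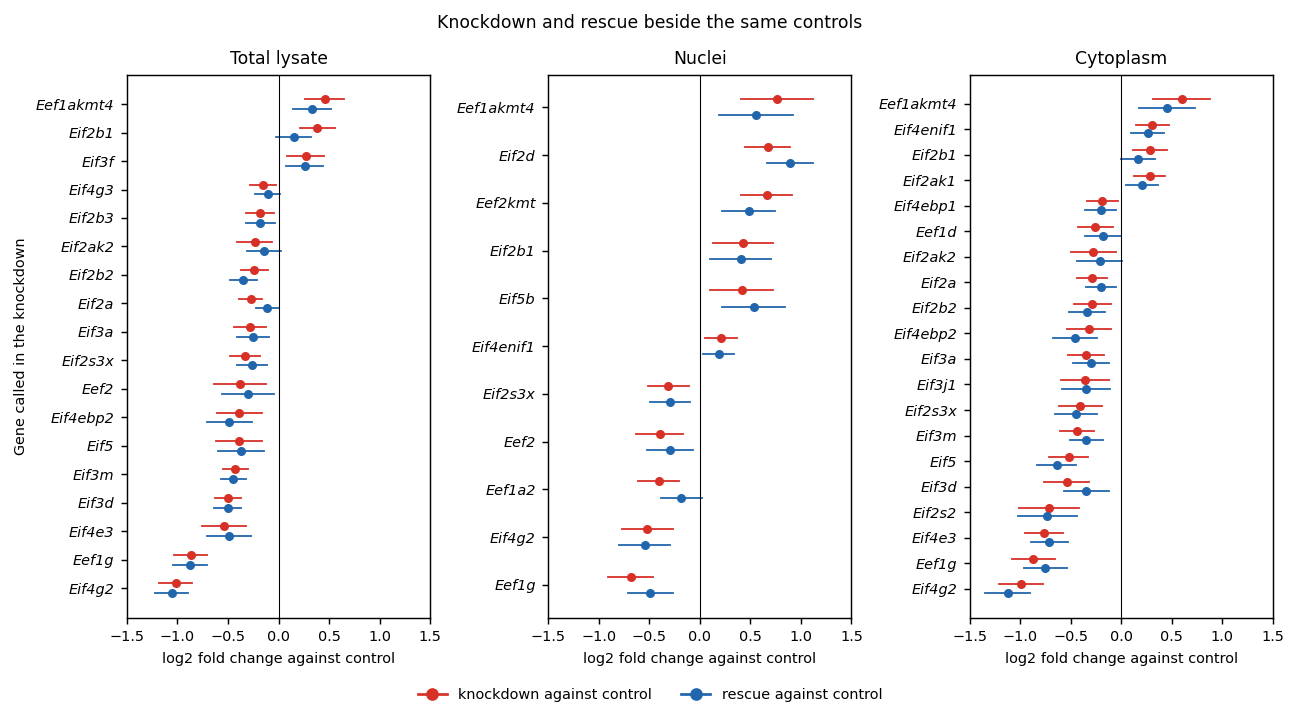
Log2 fold change against control (x axis) of the members called in the knockdown of each fraction (y axis), for knockdown (red) and rescue (blue), with 95% intervals from edgeR. Both are measured against the same control libraries; Eif4g2 in total lysate lies at -1.02 and -1.06.

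No difference between the isoforms passed the test in these libraries. The difference of the rescue between the pEx5 and mEx5 lines called 0 members in total lysate, nuclei and cytoplasm, and 0% of all genes passed (edgeR). An unadjusted p under 0.05 was reached by 1 member in total lysate, Eif6 (0.35), and by 0 in nuclei and in cytoplasm. Of all genes 98, 26 and 288 reached it. DESeq2 called 0 members, and 0, 0 and 7 of all genes. The median 95% interval of a member spanned 0.36, 0.50 and 0.34 log2 units to each side before adjustment. The adjusted test needs more: Chtop itself differed by 0.98 ± 0.22 in total lysate with an adjusted p of 0.9993. By line, Eif4g2 in total lysate changed with rescue by 0.01 ± 0.10 under mEx5 and -0.10 ± 0.10 under pEx5.

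Genes of the same pathways outside the symbol rule were read beside these, against 21.4% of all genes higher and 22.6% lower (43.9% in all) in total lysate. Of 9 genes for the modification of eIF5A and eEF2, 4 rose and 0 fell, a share of calls at that of all genes, with a median of 0.17: Dph2 and Dph7, which act in diphthamide synthesis on eEF2, Dnajc24 of the same pathway, and Dhps, the first enzyme of hypusine synthesis on eIF5A, which stood at 0.34 ± 0.05 (adjusted p = 0.000596, edgeR). Of 11 cap signalling genes 2 rose and 4 fell, Mtor at -0.53 ± 0.08 and Ddit4, an inhibitor of mTORC1, at -0.65 ± 0.12 among the latter. Of 8 genes of the eIF2 stress response 2 rose and 2 fell, with Sesn2 at 0.63 ± 0.08 and Asns at -0.34 ± 0.06, while 1 of 7 termination and recycling genes rose (Etf1) and 1 fell (Hbs1l). Of 8 mitochondrial translation factors 1 rose and 2 fell. The 10 members known as TOP mRNAs had 1 rise (Eif3f) and 2 falls (Eef1g and Eef2) with a median of -0.09, and the other 53 members 2 rises and 13 falls with a median of 0.02.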

How the data were processed

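Salmon 0.14.1 and DESeq2 are the tools, and mm10 the build, in the submitters' processing notes. Whole-number counts for 9239 genes were deposited by the authors; how these genes were chosen is not stated. The deposited RPKM values are, per the file headers, scaled to transcript length and library size, and served for levels between genes. Of the RPKM columns, 1 has no sample among the labels and was not used. Log2 fold changes between fractions in the authors' deposited table are quoted only where credited. Gene positions came from GENCODE M21 (63 of 63 identifiers matched).

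Counts were fitted with edgeR 4.0.16 under R 4.3.3, per fraction and for nuclei with cytoplasm, by group, with filterByExpr (2, 0, 1 and 0 genes removed), TMM and robust quasi-likelihood dispersion. P-values were adjusted by Benjamini-Hochberg over every gene fitted, and an adjusted p under 0.05 is a call. SE is the fold change over the root of F. CPM is counts over the library total. The lone cytoplasmic library of the pEx5 control takes its spread from the remaining groups. Steps were tested on simulated data.

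Members and lists were chosen with earlier results of these data known. Library values are given for the 3 highest and 3 lowest called members of each contrast with at least 5 CPM, for paralog families, and for further members chosen after their values were seen. Alternatives were leaving out each library, a block for replicate or culture, no low-count filter, scaling by library totals or by DESeq2 size factors, DESeq2 1.42.0 itself and a joint fit of all 35 libraries. Replicate numbers come from the labels. Deviations of same-numbered libraries correlated at 0.35 to 0.80 in total lysate (15 pairs) and 0.53 to 0.73 in nuclei (15 pairs), so these numbers pair the samples; in cytoplasm they ran from 0.041 to 0.66 (10 pairs), and pairing was not taken as given there. Salmon splits reads among near-identical copies (Eif3j1 and Eif3j2, Eef1a1 and its pseudogenes) by estimate.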

Additional observations from a re-analysis of the deposited data

Results flagged for a closer look

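Both genes listed here differed in their knockdown change between nuclei and cytoplasm by the interaction term of the edgeR fit. Eif2d shifted toward nuclei by 0.72 ± 0.15 log2 units. Eif4e3 shifted toward nuclei by 0.58 ± 0.13. The mitochondrial share and the Malat1 level given with the results also differed between control and knockdown libraries, and their part was not tested.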

How the results depend on the processing

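Of 360 alternative values of the genes chosen by rule in 26 gene and comparison pairs, 351 kept direction and side of the threshold, 9 lost the call and 0 reversed. With the replicate block, members called went from 18 to 35 for knockdown in total lysate, from 11 to 30 in nuclei, from 16 to 33 and from 11 to 23 for rescue against control in total lysate and nuclei, from 0 to 1 for rescue against knockdown in total lysate and from 2 to 13 for the knockdown shift; the block changed no other count by over 1.5 times. Over all genes the block raised the shares called too. In the same order they went from 43.9% to 62.9%, 31.4% to 55.4%, 37.3% to 57.9%, 23.7% to 49.8%, 0.0217% to 1.84% and 5.14% to 22.6%. The nuclear knockdown count was 17 with DESeq2 (36% of all genes) and 21 with all 35 libraries in 1 fit (42.5%). The knockdown shift count was 4 with DESeq2, with library totals alone and with all 35 libraries, beside 8.57%, 6.68% and 8.52% of all genes. Leaving out 1 library gave 13 to 19 members for knockdown in total lysate, 7 to 10 in nuclei and 15 to 25 in cytoplasm, 9 to 13, 5 to 10 and 12 to 20 for rescue against control, 48 to 52 between fractions, 1 to 3 for the knockdown shift and 0 to 9 for rescue against knockdown in cytoplasm. Each such fit leaves a group with 1 library, and the share of all genes called moved as well. Without the single cytoplasmic pEx5 control, knockdown and rescue against control in cytoplasm, the fraction ratio and the knockdown shift have no value. The cause of these differences was not tested. A median SE of 0.08 in total lysate and 0.15 for the shift limits what could be called.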

Other observations

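Values of genes outside the count table are given without a test, since only their RPKM values were used here. Eif5a2, the paralog of Eif5a, ran from 5.65 to 6.28 RPKM in control total lysate, 4.13 to 4.85 in knockdown and 4.22 to 5.61 in rescue. In cytoplasm it ran from 9.35 to 11.8 in control, 7.33 to 9.97 in knockdown and 6.75 to 8.23 in rescue. Eif4ebp3, the third 4E-binding protein gene, ran from 7.25 to 17.9 RPKM in control nuclei and from 0 to 0.17 in control cytoplasm, with 8.77 to 20.3 and 0 to 0.75 after knockdown. Eif4e1b, Eef1akmt3 and Eif2c5 stayed under 1 RPKM in every library. The knockdown change differed between the lines with an unadjusted p under 0.05 for 3 members in nuclei (Eef1a2, Eif3f and Eif4ebp1, edgeR). Of all genes 604 reached that level there. After adjustment 0 members were called, with edgeR and with DESeq2.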
